A study of Harpegnathos saltator with 35 samples.

Results

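Nep5 (LOC105189831), a peptidase gene named for the neprilysin family, is described here across neuronal cultures made from brains of the ant Harpegnathos saltator. It is 1 of 14001 genes in the expression table, and its level is given in all 35 libraries of the study's 8 groups. The gene was selected on its baseline levels, which were lower in 20E than in JH3, so those values are given as a description and are not tested. Tests were made only within the 26 libraries of the switched cultures. Earlier results of these data, with those libraries among them, were known when the gene was chosen, so the tests and ranks given are not independent of that choice.

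Neprilysins are zinc-dependent peptidases, many of them anchored in the plasma membrane with the catalytic domain outside the cell, where they cut short peptides such as neuropeptides and peptide hormones. In mammals the founding member breaks down enkephalins, tachykinins and amyloid-beta, and in Drosophila members of the family are needed in the brain for memory and elsewhere for fertility and muscle function. 20-hydroxyecdysone (20E) is the active moulting steroid of insects, and juvenile hormone III (JH3) is the sesquiterpenoid that modifies or opposes its action. In adult Harpegnathos the balance of these hormones differs between workers and the reproductive workers called gamergates, and the cultures addressed how neurons respond to each of them.

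Cells of dissociated central brains were plated and kept for 5 days in medium with 2 µM 20E (20E cultures) or 2 µM JH3 (JH3 cultures). All cultures shared the same medium supplements, including honeybee pupal extract until the fourth day, progesterone and insulin, so no group was free of added hormones. The groups were JH3 cultures given 2 µM 20E for 30 min (5 libraries), 6 h (6) or 24 h (4), 20E cultures given 2 µM JH3 for 30 min (3), 6 h (5) or 24 h (3), and the baselines, which were 20E cultures (5) and JH3 cultures (4) given the solvent DMSO for 30 min. Replicates were independent cultures, per the series' design text, and a culture could hold more than neurons, since the cells were not sorted.

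Polyadenylated RNA was sequenced and levels are given as FPKM, the fragments of a gene per unit of its length and of library size, as computed by the authors. Whole reads were recovered from the steps of these values, and the libraries held between 5938007 and 22650435 reads. All 9 neuron markers measured (among them Syn, nSyb and brp) were above 0 in all 35 libraries, and so were all 6 glia markers (among them repo and drpr). The same held for all 9 muscle markers and all 7 hemocyte and matrix markers, so it does not tell cell types apart. Libraries fell into 3 sequencing runs, called A, B and C after the dates and flow cell codes of the labels. A pair of libraries stood apart in earlier results of these data and are named where they enter. These are replicate 4 of the JH3 baseline, without which 2482 genes instead of 2088 differed between the baselines, and replicate 5 of 20E for 30 min, the shallowest library. Leaving out replicate 3 of the JH3 baseline instead gave 1219 genes. RNA was taken from whole wells, so fewer cells that express a gene and less of its RNA per cell cannot be told apart.

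Nep5 occupied ranges that did not meet. In the 15 libraries of JH3 cultures that had no 20E or up to 6 h of it, Nep5 lay between 5.77 and 23.4 FPKM, resting on 341 to 1304 reads per library. In the other 20 libraries, those of all 20E cultures and of JH3 cultures with 24 h of 20E, it lay between 0.0386 and 1.00 FPKM, resting on 3 to 33 reads per library. Nep5 was therefore counted in every library, but with few reads in the low ones.

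In the baselines, from which the gene was chosen, Nep5 had 0.308, 0.144, 0.0775, 0.457 and 0.387 FPKM in 20E cultures, against 12.4, 23.4, 7.94 and 6.62 FPKM in JH3 cultures. All 5 libraries of 20E cultures lay below all 4 of JH3 cultures. The mean was 0.275 ± 0.160 FPKM (SD, n = 5) in 20E cultures and 12.6 ± 7.64 FPKM (SD, n = 4) in JH3 cultures, 45.9 times lower in 20E. On the log2(FPKM + 1) scale, adjusted for run, the difference was -3.31 (SE 0.21), and without replicate 4 of the JH3 baseline it was -3.48.

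**Figure D1:**
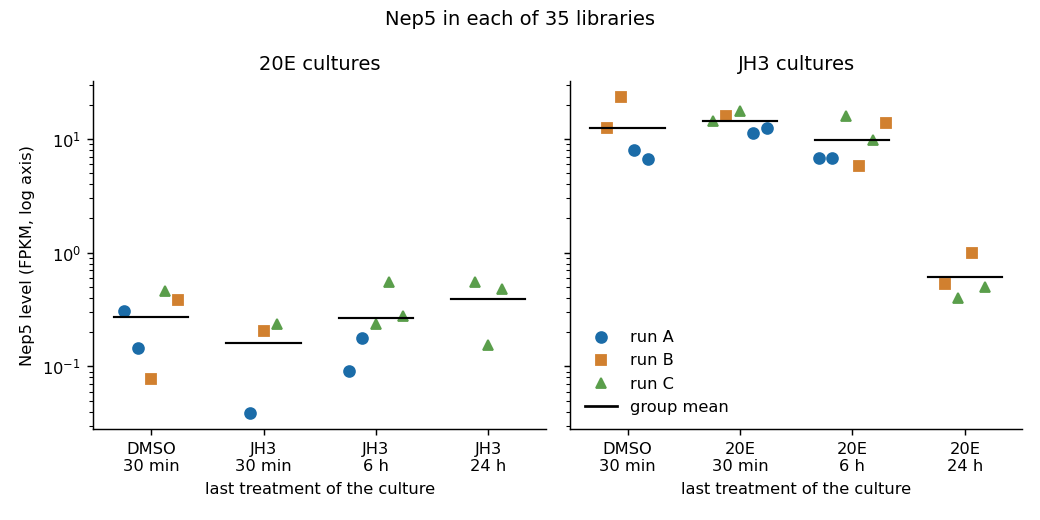
Nep5 level in FPKM on a log axis in each of the 35 libraries, 20E cultures on the left and JH3 cultures on the right, by the last treatment. Points are libraries, with shape and colour for the sequencing run, and bars are group means. The 16 libraries of 20E cultures lie between 0.0386 and 0.549 FPKM, and the JH3 cultures drop to 0.401 to 1.00 FPKM only in the libraries with 24 h of 20E.

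The same difference in culture hormone was asked of switched libraries, after 30 min of the opposite hormone. Nep5 had 0.0386, 0.204 and 0.237 FPKM in 20E cultures given JH3 for 30 min, from 3, 14 and 15 reads. It had 14.4, 16.0, 17.7, 11.3 and 12.4 FPKM in JH3 cultures given 20E for 30 min, from 376 to 1246 reads per library. All 3 libraries of 20E cultures lay below all 5 of JH3 cultures, with means of 0.160 ± 0.106 FPKM (SD, n = 3) and 14.3 ± 2.59 FPKM (SD, n = 5), 89.8 times lower in 20E cultures. The log2 difference was -3.74 (SE 0.20, limma adjusted p = 4.57e-11), in a comparison in which 21.1% of the 9873 genes tested were called. Within run A, with 1 library of 20E cultures (3 reads of Nep5), it was -3.63. Within runs B and C, with 1 such library each, it was -3.79 (limma adjusted p = 1.91e-06). Without replicate 5 of the JH3 cultures it was -3.72 (limma adjusted p = 2.66e-10). On the recovered reads voom put it at -6.65 (adjusted p = 7.59e-08), with low levels compressed less, though voom also adds a small offset to each count.

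Nep5 thereby changed its place among the tested genes. These needed 1 FPKM or more in 3 or more libraries, which Nep5 met through JH3 cultures only, as no library of 20E cultures exceeded 0.549 FPKM. Genes low in every group were thus left out, so the low place of Nep5 in 20E cultures is partly set by that filter. In 20E cultures given JH3 for 30 min only 0.395% of the 9873 tested genes had a lower mean level, against 71.0% in JH3 cultures given 20E for 30 min. The median of the gene means was nearly the same in these groups, at 7.45 and 7.39 FPKM. In JH3 cultures given 20E for 24 h 3.40% of the tested genes had a lower mean than Nep5.

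Neuron markers moved with the culture hormone as well. The summed level of the 9 neuron markers was 359 to 575 FPKM in 20E cultures given JH3 for 30 min, against 631 to 982 FPKM in JH3 cultures given 20E for 30 min, and 5 of the 9 (Rab3, nSyb, Syt1, Snap25 and cac) were lower, beside 11.7% of all genes. The summed level of the 6 glia markers was 63.3 to 151 FPKM in the 20E cultures and 68.4 to 112 FPKM in the JH3 cultures, and axo was the 1 of the 6 called, higher in 20E cultures, beside 9.41% of all genes called higher. Of 8 tested muscle markers 1 was called, beside 11.7% of all genes called lower. This was Mp20, a muscle protein gene, which was lower (log2 difference -2.14, limma adjusted p = 1.46e-04).

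Summed levels of the 6 photoreceptor markers were compared between these groups as well, where 21.1% of all genes were called. They were 8.58 to 11.1 FPKM in 20E cultures given JH3 for 30 min. In JH3 cultures given 20E for 30 min they were 12.5 to 147 FPKM. Levels of Arr1 overlapped between the groups, at 0.514 to 0.927 FPKM and 0.832 to 48.8 FPKM in the same order. Of the 6 genes, trpl was at 0 in 19 of the 35 libraries. None of the 4 tested was called (median log2 difference -1.56, all genes 0.0047), but without replicate 5 of the JH3 cultures Arr2, Arr1 and ninaC were lower (limma adjusted p = 0.0429, 0.0481 and 0.0331). In the baselines the neuron markers summed to 371 to 895 FPKM in 20E cultures and 564 to 787 FPKM in JH3 cultures, with 3 of the 9 (Rab3, nSyb and Snap25) lower in 20E, beside 11.4% of all genes. The part of these differences in the Nep5 result was not tested.

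In JH3 cultures Nep5 fell between 6 h and 24 h of 20E. With 20E for 30 min the 5 libraries lay between 11.3 and 17.7 FPKM. With 20E for 6 h the 6 libraries had a lowest level of 5.77, a median of 8.27 and a highest level of 15.9 FPKM. With 20E for 24 h the 4 libraries had 0.534, 0.401, 1.00 and 0.504 FPKM, from 18 to 33 reads each. The 24 h libraries lay far below every earlier one, while those of 6 h and 30 min overlapped.

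After 24 h the mean was 0.610 ± 0.267 FPKM (SD, n = 4), which is 4.25% of the 14.3 FPKM at 30 min. The log2 difference of -3.40 (SE 0.19, limma adjusted p = 3.97e-10) was the largest fall and had the smallest p among the 9873 genes tested, of which 6.18% were called. Within runs B and C it was also -3.40 (limma adjusted p = 1.46e-06), and run A held no 24 h library of this switch. Without replicate 5 of the 30 min group it was -3.39 (limma adjusted p = 3.16e-09).

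Nep5 also fell at 24 h against 6 h, to 0.610 ± 0.267 FPKM (SD, n = 4) against 9.81 ± 4.17 FPKM (SD, n = 6). This log2 difference was -2.80 (SE 0.18, limma adjusted p = 6.11e-09), again the largest fall and the smallest p of all genes tested, of which 3.04% were called. On recovered reads voom put it at -4.21 (adjusted p = 2.26e-06).

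The first 6 h of 20E gave a smaller difference that was not called. The mean at 6 h was 68.3% of that at 30 min, and 4 of the 6 libraries at 6 h lay below all 5 at 30 min. The log2 difference was -0.60 (SE 0.17, 95% interval -0.95 to -0.25), with an unadjusted p of 0.00184 and a limma adjusted p of 0.19, and 0.527% of genes were called in this comparison. Replicate 3, at 15.9 FPKM the highest of the 6 h libraries, decided the call: without it the difference was -0.74 (limma adjusted p = 0.0287). Within run A the difference was -0.71 (limma adjusted p = 0.654) and within runs B and C -0.54 (limma adjusted p = 1).

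**Figure D2:**
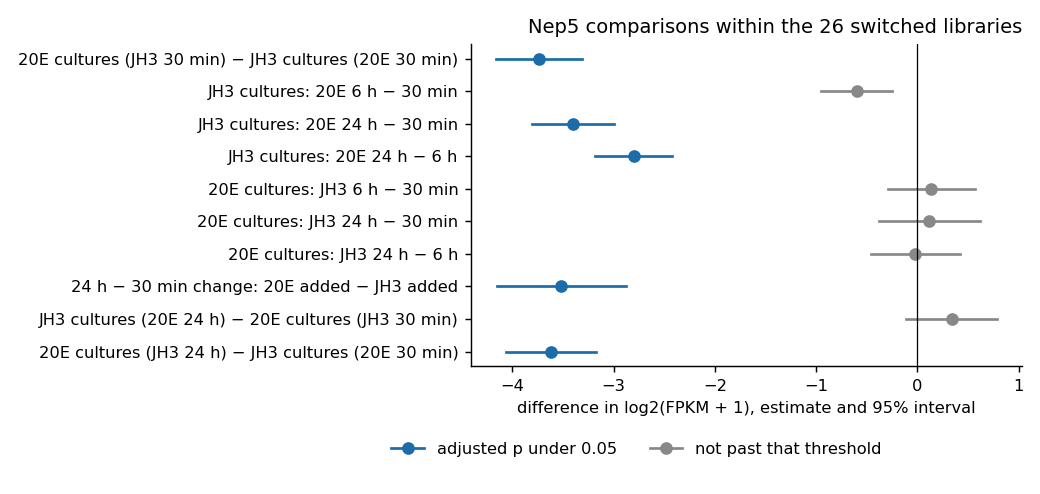
The 10 comparisons of Nep5 within the 26 switched libraries, as differences in log2(FPKM + 1) with 95% intervals, the group named first minus the one named second. Blue marks an adjusted p under 0.05. The 5 blue estimates lie between -3.74 and -2.80, and the intervals for JH3 given to 20E cultures include 0.

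Cell type markers were compared in the same step. The summed neuron markers were 798 to 942 FPKM with 20E for 24 h, against 631 to 982 FPKM with 20E for 30 min, and none of the 9 was called, or 1 lower without replicate 5 of the 30 min group (all genes: 6.18% called). Summed glia markers were 74.3 to 101 FPKM at 24 h against 68.4 to 112 FPKM at 30 min. Of the 6 glia markers 2 were called higher, Gli and Gs2, beside 3.39% of all genes. Summed muscle markers were 67.4 to 79.0 FPKM at 24 h against 46.1 to 68.5 FPKM at 30 min. Of the 8 tested muscle markers 1 was called higher, Tm1, beside the same share of all genes. Summed hemocyte and matrix markers were 28.4 to 37.2 FPKM at 24 h and 25.95 to 47.2 FPKM at 30 min, and summed fat body markers 7.61 to 10.6 FPKM and 8.87 to 20.2 FPKM, with none called in either list.

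Photoreceptor markers summed to 8.40 to 11.7 FPKM at 24 h, against 12.5 to 147 FPKM at 30 min, with none of the 4 tested called. At 6 h of 20E replicates 1, 4 and 6 had sums of 7.77, 8.03 and 8.27 FPKM, with Nep5 at 6.83, 5.77 and 13.8 FPKM. Replicates 2, 3 and 5 had sums of 86.2, 15.6 and 128 FPKM, with Nep5 at 6.83, 15.9 and 9.71 FPKM. Any part of these markers in the fall of Nep5 was not tested.

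In 20E cultures Nep5 was not called higher within 24 h of JH3. Nep5 had 0.0386, 0.204 and 0.237 FPKM with JH3 for 30 min. It had 0.0908, 0.179, 0.235, 0.549 and 0.279 FPKM with JH3 for 6 h. It had 0.548, 0.155 and 0.481 FPKM with JH3 for 24 h. The groups overlapped at every time, although 2 of the 3 libraries at 24 h lay above all 3 at 30 min.

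The means were 0.160 ± 0.106 (SD, n = 3), 0.267 ± 0.173 (SD, n = 5) and 0.395 ± 0.210 FPKM (SD, n = 3) at 30 min, 6 h and 24 h. The log2 difference of 24 h from 30 min was 0.12 (SE 0.24, 95% interval -0.38 to 0.62, limma adjusted p = 0.828), in a comparison with 2.15% of genes called. That of 6 h from 30 min was 0.14 (SE 0.21, 95% interval -0.29 to 0.57, limma adjusted p = 0.999), with 0.122% of genes called. That of 24 h from 6 h was -0.02 (SE 0.21, limma adjusted p = 0.970), with 0.0405% of genes called, and its sign turned under other settings. At 5 to 25 reads per 24 h library, voom on recovered reads put the 24 h difference from 30 min at 1.10 (SE 0.72, adjusted p = 0.470), a wider range than the log2(FPKM + 1) scale shows. All 3 libraries with JH3 for 24 h came from run C.

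The level reached was far below that of JH3 cultures. With JH3 for 24 h the 20E cultures held 2.75% of the mean of JH3 cultures given 20E for 30 min, a log2 difference of -3.62 (SE 0.21, limma adjusted p = 3.16e-10) with 12.5% of genes called. All 3 libraries lay below all 5, and without replicate 5 of the JH3 cultures the difference was -3.61 (limma adjusted p = 1.54e-09). On recovered reads it was -5.55 (voom adjusted p = 3.93e-07).

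The changes over 24 h of the switches differed from each other. The change in JH3 cultures given 20E minus the change in 20E cultures given JH3 was -3.52 (SE 0.31, 95% interval -4.15 to -2.88, limma adjusted p = 1.34e-06), with 4.15% of genes called for such a difference. Nep5 had the smallest p of the genes tested, and the difference was -3.56 within runs B and C (limma adjusted p = 1.61e-04) and -5.97 by voom on recovered reads (adjusted p = 1.14e-04). Without replicate 5 of the 30 min group it was -3.50 (limma adjusted p = 2.67e-06).

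After 24 h of 20E the JH3 cultures were also set against 20E cultures at 30 min. Nep5 lay between 0.401 and 1.00 FPKM in JH3 cultures given 20E for 24 h, against 0.0386 to 0.237 FPKM in 20E cultures given JH3 for 30 min. All 4 libraries lay above all 3, but the log2 difference of 0.34 was not called (SE 0.22, 95% interval -0.11 to 0.79, limma adjusted p = 0.285), in a comparison with 15.9% of genes called. The call depended on the setting: a pseudocount of 0.1 gave 1.24 (limma adjusted p = 0.0236). The exact permutation test, two-sided and without a run term, gave an unadjusted p = 0.0286, the smallest it can give here. Voom on recovered reads gave 1.78, which was not called (adjusted p = 0.0549). The highest levels in the 20E baseline (0.457 FPKM) and in 20E cultures given JH3 for 6 h (0.549) or 24 h (0.548) lay within the range of the JH3 cultures given 20E for 24 h.

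Ordered by mean level, the groups ran from JH3 cultures given 20E for 30 min (14.3 FPKM), the JH3 baseline (12.6) and JH3 cultures given 20E for 6 h (9.81) to JH3 cultures given 20E for 24 h (0.610). Below these came 20E cultures given JH3 for 24 h (0.395), the 20E baseline (0.275), and 20E cultures given JH3 for 6 h (0.267) and 30 min (0.160). Of these neighbours only the 6 h and 24 h groups of the JH3 cultures had ranges that did not overlap. As a description with no test, the log2 differences from the own baseline were 0.27, -0.34 and -3.16 in JH3 cultures with 20E for 30 min, 6 h and 24 h. In 20E cultures with JH3 they were -0.16, -0.0046 and -0.04 at the same times.

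The spread between cultures was large relative to the mean in most groups. The coefficient of variation was 18.0% in JH3 cultures given 20E for 30 min and 60.6% in the JH3 baseline, and it lay between 42.5% and 66.5% in the remaining groups. Part of this spread followed the run. In the JH3 baseline the run A libraries had 7.94 and 6.62 FPKM and the run B libraries 12.4 and 23.4 FPKM. In JH3 cultures given 20E for 30 min the run A libraries had 11.3 and 12.4 FPKM, below the 14.4 to 17.7 FPKM of the others. At 6 h of 20E the run A libraries, at 6.83 FPKM each, lay within the range of run B, at 5.77 and 13.8 FPKM, and below run C, at 9.71 and 15.9 FPKM.

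The rest of the family was looked at next. By symbol, 2 further neprilysin genes were found, Nep3 (LOC105183294) and Nep2 (LOC105189104), and neither passed the threshold in any comparison made. Nep3 had group means between 21.8 and 36.8 FPKM, and with 20E for 24 h it had 30.0 ± 4.21 FPKM (SD, n = 4) against 32.5 ± 7.95 FPKM (SD, n = 5) at 30 min, a log2 difference of 0.02 (SE 0.28, 95% interval -0.56 to 0.60, limma adjusted p = 0.984). FPKM is scaled to gene length, so levels of genes can be compared: Nep3 was above Nep5 on average in all 8 groups.

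Nep2, which in Drosophila cuts tachykinin-type peptides, had group means from 0.826 to 1.94 FPKM in 7 of the groups. In JH3 cultures it had 1.76 ± 0.552 FPKM (SD, n = 4) with 20E for 24 h and 1.71 ± 0.348 FPKM (SD, n = 5) with 20E for 30 min (log2 difference -0.03, SE 0.32, 95% interval -0.70 to 0.63). In 20E cultures given JH3 for 24 h its 3 libraries ranged from 1.40 to 11.0 FPKM, all above the 0.565 to 1.19 FPKM of those given JH3 for 30 min. That difference of 1.30 (SE 0.39, limma adjusted p = 0.0871) was not called. Nep2 with Nep3 thus had no called member in the step in which Nep5 fell, beside 2.79% of all genes called lower.

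**Figure D3:**
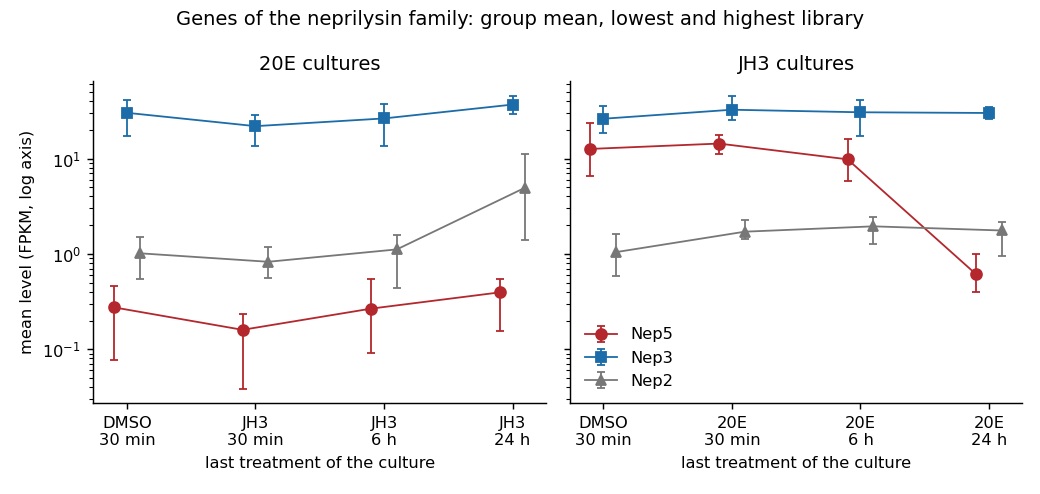
Mean FPKM on a log axis of Nep5, Nep3 and Nep2 in 20E cultures on the left and JH3 cultures on the right, with bars from the lowest to the highest library. Nep3 stays between 21.8 and 36.8 FPKM on average, while Nep5 reaches 0.610 FPKM with 20E for 24 h.

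Genes that make, sense and remove peptides were looked at beside Nep5. Of 4 other peptidases that trim or degrade peptides (Ide, DppIII, Ance-3 and Dpp10), Dpp10 changed and the other 3 were not called. Its relatives in mammals include a catalytically inactive protein that joins potassium channels, so the family name does not by itself make it an enzyme. Dpp10 was lower in 20E cultures given JH3 for 30 min than in JH3 cultures given 20E for 30 min (-1.95, limma adjusted p = 2.52e-07) and in the 20E than in the JH3 baseline (-1.38, limma adjusted p = 4.65e-05). Dpp10 had 100.5 ± 25.5 FPKM (SD, n = 4) with 20E for 24 h against 168 ± 8.80 FPKM (SD, n = 5) with 20E for 30 min, a log2 difference of -0.83 (limma adjusted p = 0.00684), beside 2.79% of all genes called lower. It also rose in 20E cultures given JH3, beside 1.71% of all genes, with 93.7 ± 17.0 FPKM (SD, n = 3) at 24 h against 44.2 ± 9.46 FPKM (SD, n = 3) at 30 min (log2 difference 1.12, limma adjusted p = 0.0115).

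Of the 7 tested genes that process or release neuropeptides, 5 were lower in 20E cultures given JH3 for 30 min than in JH3 cultures given 20E for 30 min, beside 11.7% of all genes. These were 7B2 and amon, a chaperone and the convertase it serves, Phm, which amidates peptides, svr, a carboxypeptidase, and Syt7, a calcium sensor of secretion. 7B2 had 99.0 ± 28.7 FPKM (SD, n = 3) against 261 ± 46.5 FPKM (SD, n = 5), a log2 difference of -1.41, and amon had 98.2 ± 15.5 FPKM (SD, n = 3) against 221 ± 45.2 FPKM (SD, n = 5), a difference of -1.14. The median of the list was -0.79, against 0.0047 over all genes, and 4 remained called without replicate 5 of the JH3 cultures. With 20E for 24 h none of the 7 was called (median -0.45, all genes -0.01), or 1 without that replicate.

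In the baselines 4 of these 7 genes were lower in 20E cultures, beside 11.4% of all genes. Their log2 differences were -1.52 for 7B2, -1.07 for amon, -0.92 for Phm and -0.69 for svr. The list's median there was -0.69, against 0.0038 over all genes.

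Of 11 tested neuropeptide genes 3 were lower in 20E cultures given JH3 for 30 min than in JH3 cultures given 20E for 30 min: Dh31 (-0.90) and Dh44 (-0.76), diuretic hormones, and CCHa1 (-0.71), beside 11.7% of all genes. Without replicate 5 of the JH3 cultures CCHa1 lost its call (limma adjusted p = 0.0767) and Nplp1 gained one (limma adjusted p = 0.00358). The median of the list was -0.64. In the baselines Pdf, the circadian pigment-dispersing factor, was lower in 20E (-0.88, limma adjusted p = 0.0267), and so was Nplp1 (-0.60, limma adjusted p = 0.0400), beside 11.4% of all genes. Without replicate 4 of the JH3 baseline Nplp1 was not called (limma adjusted p = 0.0722) and 4 genes were, Pdf, Ms, NPF and Dh31. None was called with 20E for 24 h (median 0.24) or JH3 for 24 h (median 0.15).

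Of 6 tested neuropeptide receptors FMRFaR, for FMRFamide-type peptides, was higher with 20E for 24 h, at 8.64 ± 2.18 FPKM (SD, n = 4) against 4.22 ± 1.17 FPKM (SD, n = 5) at 30 min. That log2 difference was 0.92 (limma adjusted p = 0.00502), beside 3.39% of all genes called higher. FMRFaR and ETHR, for ecdysis triggering hormone, were higher in 20E cultures given JH3 for 30 min than in JH3 cultures given 20E for 30 min (1.30 and 0.75), beside 9.41% of all genes, and Pdfr, for pigment-dispersing factor, was lower (-1.33), beside 11.7% of all genes, joined by AstA-R1 without replicate 5 of the JH3 cultures (limma adjusted p = 0.0430). In the baselines ETHR was higher in 20E (0.75), beside 9.7% of all genes, and Pdfr (-1.08) and AstA-R1 (-0.78) were lower, beside 11.4%. Without replicate 4 of the JH3 baseline CCAP-R was called higher as well (limma adjusted p = 0.0184).

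The timing of Nep5 was set beside genes of the hormone response. E75, an early 20E-induced nuclear receptor, had 46.9, 488 and 517 FPKM on average with 20E for 30 min, 6 h and 24 h, and its log2 difference was 3.34 at 6 h from 30 min (limma adjusted p = 2.17e-09) and 0.01 at 24 h from 6 h (limma adjusted p = 0.984). Nep5 had means of 14.3, 9.81 and 0.610 FPKM at these times, so E75 passed the threshold at 6 h and Nep5 at 24 h. usp, the partner of the ecdysone receptor, had 54.4, 53.0 and 19.6 FPKM, and like Nep5 it was called at 24 h from 6 h (-1.39, limma adjusted p = 0.00164) and not at 6 h from 30 min (-0.04).

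In 20E cultures Kr-h1, a JH-induced zinc finger factor, had 6.99, 60.5 and 61.3 FPKM with JH3 for 30 min, 6 h and 24 h. Its log2 difference was 2.66 at 6 h from 30 min (limma adjusted p = 0.00442), in the same libraries in which Nep5 averaged 0.160, 0.267 and 0.395 FPKM. Kr-h1 rose in libraries in which Nep5 was not called. Hr4, another 20E-induced nuclear receptor, averaged 12.5, 17.3 and 51.8 FPKM with 20E for 30 min, 6 h and 24 h. Replicate 5 carried the 30 min mean, at 40.1 FPKM against 4.90 to 6.49 FPKM in the other 4 libraries, and all 6 libraries at 6 h, the lowest at 10.4 FPKM, lay above those 4. Hr4 was called at 24 h from 6 h (1.77, limma adjusted p = 0.00907).

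**Figure D4:**
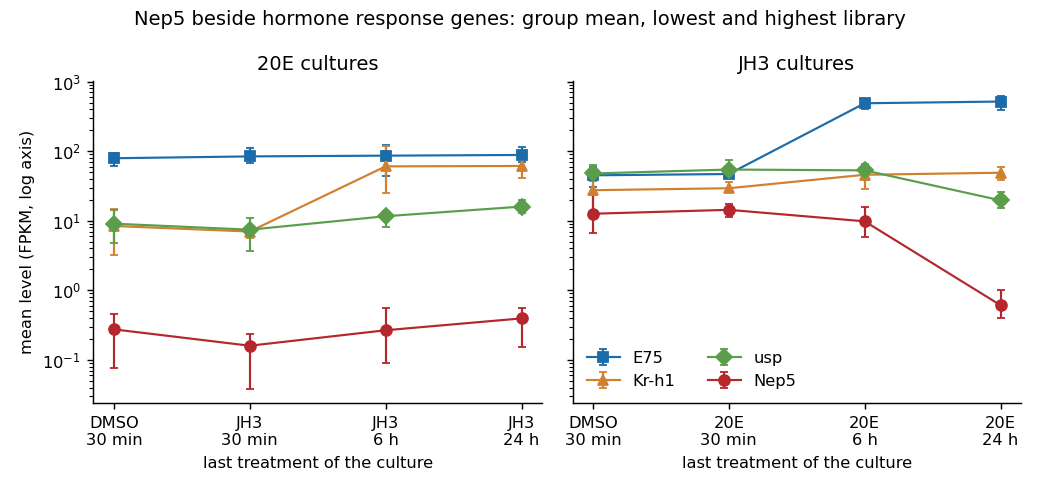
Mean FPKM on a log axis of Nep5, E75, Kr-h1 and usp by last treatment, 20E cultures on the left and JH3 cultures on the right, with bars from the lowest to the highest library. With 20E, E75 reaches 488 FPKM at 6 h, while Nep5 and usp drop to 0.610 and 19.6 FPKM at 24 h.

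The genes whose levels went most like that of Nep5 were found by the Pearson r of log2(FPKM + 1) over the 35 libraries, which share groups and runs. Of 8632 genes compared, 32 had an r of at least 0.9 and 3 an r of -0.9 or less. The highest were LOC105182024 (r = 0.975, Spearman rho 0.910), LOC105180846 (r = 0.975, rho 0.926) and Drep4, a gene of the DNA fragmentation factor family (r = 0.975, rho 0.929). LOC105183451 (0.954), LOC105187512 (0.953), nolo (0.951), an extracellular matrix gene, LOC105187962 (0.949) and Lapsyn (0.938) followed.

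LOC105180846 came nearest to Nep5 in the size of the change. It averaged 4.20 ± 1.59 FPKM (SD, n = 4) with 20E for 24 h and 30.5 ± 7.70 FPKM (SD, n = 5) with 20E for 30 min, a log2 difference of -2.76. Nep5 differed by -3.40 in the same step, and the other 7 of these genes by -1.01 (Lapsyn) to -2.49 (LOC105187962). nolo averaged 21.5 ± 0.881 FPKM (SD, n = 4) with 20E for 24 h and 88.3 ± 14.2 FPKM (SD, n = 5) with 20E for 30 min. In 20E cultures the differences of the 8 genes between 24 h and 30 min of JH3 lay between -0.38 (LOC105182024) and 1.15 (LOC105187962), and that of Nep5 was 0.12.

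The 6 genes with the lowest r were LOC105181341 (-0.913), LOC105187097 (-0.911), LOC105190590 (-0.910), LOC105184549 (-0.896), LOC105182869 (-0.893) and Abp1 (-0.881), an actin-binding protein gene. LOC105187097 averaged 21.3 ± 2.43 FPKM (SD, n = 4) with 20E for 24 h and 7.26 ± 0.759 FPKM (SD, n = 5) with 20E for 30 min, where Nep5 had 0.610 and 14.3 FPKM.

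**Figure D5:**
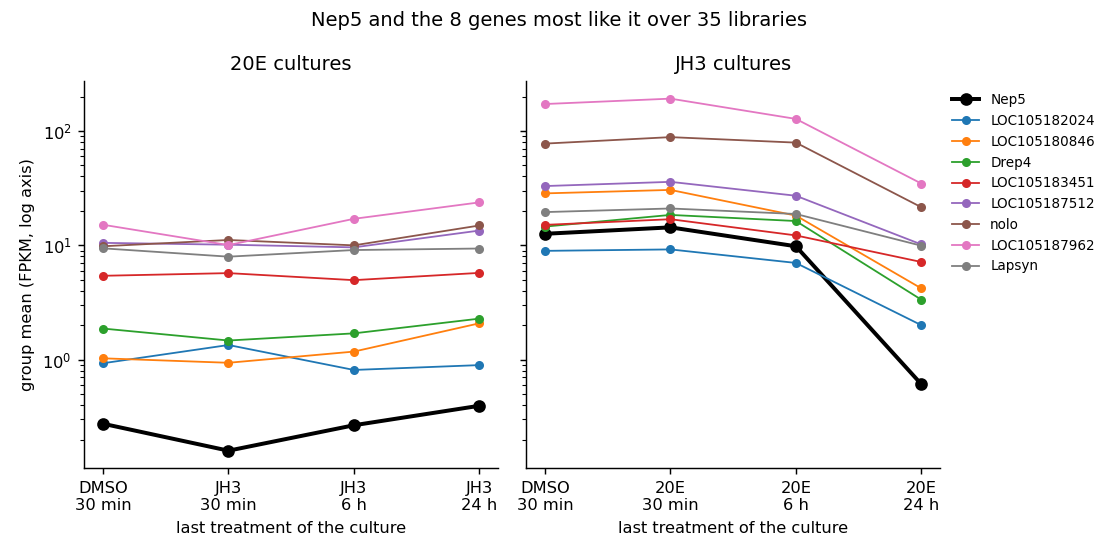
Group mean FPKM on a log axis of Nep5 and of the 8 genes with the highest Pearson r with it over 35 libraries, 20E cultures on the left and JH3 cultures on the right. All 8 lie lower with 20E for 24 h than with 20E for 30 min, by less than the log2 difference of -3.40 for Nep5.

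Those correlations include the differences between group means, so likeness was also taken over deviations from the group means. Differences between runs were left in these deviations, and their part in the likeness was not tested. Over these deviations LOC105180846 (r = 0.739) and LOC105182024 (r = 0.721) were again the highest. Doa, a LAMMER kinase gene (0.719), fz2, a Wnt receptor gene (0.713), LOC105189266 (0.700) and Sidpn (0.697) followed. Sidpn had an r of only -0.263 with Nep5 over the 35 libraries as they stood, and averaged 41.0 FPKM in 20E cultures given JH3 for 6 h, where Nep5 averaged 0.267 FPKM.

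Genes listed next to Nep5 in the RefSeq table of assembly Hsal_v8.6, which need not be the build of the files, were not called in these steps or not tested. LOC105189830 shares 40 bases with Nep5 there and had at most 1 read in any library. LOC105189843 had 0.825 ± 0.967 FPKM (SD, n = 4) with 20E for 24 h and 0.522 ± 0.465 FPKM (SD, n = 5) with 20E for 30 min (log2 difference -0.12, limma adjusted p = 0.976). LOC105189844 had 0.328 ± 0.349 FPKM (SD, n = 4) and 0.747 ± 0.423 FPKM (SD, n = 5) in these groups (-0.70, limma adjusted p = 0.673). Nep5 has 6 transcripts in that table, and the deposited level is given per gene, not per transcript.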

How the data were processed

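The authors deposited FPKM values for 14001 genes in 1 table, a column for each of 35 libraries. Per the submitters' processing notes, reads went through bcl2fastq, STAR, featureCounts and DESeq2. Genome build, annotation and strand setting of the counting: not given in the sources used here. For that reason coordinates are left out. Gene symbols were taken from RefSeq's annotation of Hsal_v8.6, where 13989 identifiers matched and 4117 of them carried a symbol.

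Nep5, the gene lists and the comparisons were chosen with earlier results of these data known. Named are Nep5 and its family, the genes with the highest and lowest likeness to it (among those averaging 2 FPKM or more in some group), up to 4 called members of each list, and E75, Kr-h1, Hr4 and usp. Genes outside this rule are named beside their list's count, after their values were seen.

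A gene was tested if 3 or more libraries had an FPKM of 1 or more (9873 genes). For the 26 switched libraries, log2(FPKM + 1) was modelled by group and run in limma (version 3.58.1, R 4.3.3), with a trended prior and robust estimation. Differences on this scale understate changes of low genes and are adjusted for run. Values with a baseline came from the same model of all 35 libraries. Tests were two-sided, with Benjamini-Hochberg adjustment over all genes tested and a threshold of 0.05. Alternatives fixed with the design were other pseudocounts, filters, normalizations, run terms, a replicate block, exact permutation tests, voom on recovered reads and leaving out libraries, and voom for the baselines and list counts without the libraries that stood apart were added later.

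For 13163 genes the deposited FPKM values proved to be multiples of a step set by gene and library, so whole reads could be recovered. A gene was accepted only if all its nonzero values lay within 0.03 of a whole read, and all 9873 tested genes were accepted. Some untested genes with reads were not recovered. Median depth was 10844903 reads. Replicates within a group were distinct libraries, with a chi-square per gene of 7.14 to 179 over 63 pairs. On simulated data for 20E at 24 h from 30 min (9873 genes), the fit called 86% of genes changed by 1 and 48% of those changed by 0.5 on the log2 scale, with 4.05% of calls false. For JH3 at 24 h from 30 min these shares were 68%, 30% and 4.49%, and for culture hormone at 30 min 72%, 46% and 5.36%. Only genes at higher mean levels were changed in the simulation. These shares therefore do not extend to levels as low as those of Nep5 in 20E cultures.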

Additional observations from a re-analysis of the deposited data

Results flagged for a closer look

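Hr4 stood at 40.1 FPKM in replicate 5 of 20E for 30 min in JH3 cultures, while the other 4 libraries of that group lay between 4.90 and 6.49 FPKM. This gap was wide enough to mark the library as far from the rest, which chance does in about 1 in 20 groups, and 42 groups were looked at. Nep5 in the same library was at 12.4 FPKM, within the 11.3 to 17.7 FPKM of its group.

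The 24 h changes of Nep5 in the opposite switches differed by -3.52 on the log2 scale, 20E given to JH3 cultures minus JH3 given to 20E cultures. The difference itself was tested (limma adjusted p = 1.34e-06).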

How the results depend on the processing

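The log2 differences of Nep5 were recomputed with other pseudocounts, filters, normalizations, run terms and sets of libraries, and 225 of 240 recomputed values held. For a test this means the same direction and the same side of the threshold. The exact permutation test was made for Nep5 alone, so its p was held to that threshold without adjustment. For the untested baseline description it means the same direction and a shift smaller than the spread between baseline replicates. The 20E and JH3 cultures at 30 min differed by -6.65 to -3.63 and the 24 h fall in 20E was -4.87 to -3.25, with a call in every setting run. Without single libraries the difference at 6 h of 20E from 30 min ranged from -0.74 to -0.46 and was called only without 6 h replicate 3. JH3 cultures given 20E for 24 h against 20E cultures given JH3 for 30 min passed with a pseudocount of 0.1 (1.24) and in the exact permutation test (0.46). JH3 for 24 h against 6 h turned its sign with a pseudocount of 0.1 (0.15) or 0.5 (0.031), without a run term (0.14), within runs B and C (0.038), by voom (0.40) and in the exact permutation test (0.14), and it ranged from -0.10 to 0.11 without single libraries. The cause of these turns was not tested. The description of the baselines moved to -5.12 with a pseudocount of 0.1, to -3.99 with 0.5 and to -5.69 by voom, as smaller pseudocounts compress low levels less.

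Replicate numbers did not pair the cultures (median correlation of deviations 0.013 over 105 same-numbered pairs, from -0.56 to 0.64). With the replicate number as a block, no call of Nep5 changed: the differences were -3.78 for culture hormone at 30 min, -0.68, -3.35 and -2.67 for 20E at 6 h from 30 min, 24 h from 30 min and 24 h from 6 h, 0.18, 0.14 and -0.04 for JH3 in the same order, -3.49 between the switches, and 0.43 and -3.64 for 24 h of 20E and of JH3 against the cultures of the other hormone at 30 min. Under the block the genes called at 24 h of 20E from 6 h numbered 138 instead of 300.

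Over all genes, calls ranged over the settings from 109 to 2245 for culture hormone at 30 min (2082 as reported) and from 1219 to 2482 for the baselines (2088). For 20E they ranged from 3 to 60 at 6 h from 30 min (52), 387 to 639 at 24 h from 30 min (610) and 138 to 346 at 24 h from 6 h (300). For JH3 these ranges were 0 to 228 (12), 56 to 508 (212) and 0 to 36 (4). They were 263 to 566 between the switches (410), and 370 to 1857 (1567) and 736 to 1425 (1230) for 24 h of 20E and of JH3 against the other cultures at 30 min. Low Nep5 levels rest on 3 to 33 reads, which limits how closely those groups can be ordered.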
